A study of Mus musculus with 8 samples.

Results

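*Met* and 7 genes that lie near it on mouse chromosome 6 were followed by RNA-seq through both lines and both treatments of the series. They were taken by symbol from the table of raw counts. The 8 genes, *Met*, *Capza2*, *Cav1*, *Cav2*, *Tes*, *St7*, *Mdfic* and *Cttnbp2*, were all found among the 50600 genes of the table. The libraries came from NF1-MET cells, a line grown out of a mouse malignant peripheral nerve sheath tumor (MPNST) of the genotype *Nf1* fl/ko; lox-stop-lox MET tg/+; Plp-creERT tg/+, and from NF1-MET;sgP53 cells, made from that line with a lentiviral CRISPR guide against *Trp53*. In that genotype the *Plp* promoter, active in Schwann cells and their precursors, drives a tamoxifen-activated Cre, and Cre switches on the MET transgene. Both lines therefore share the *Nf1* alleles, the MET transgene and the Cre, and the study describes the tumor line as *Met*-amplified, with *Cdkn2a* lost spontaneously. Cells in serum received DMSO (vehicle) or 100 nM capmatinib, an ATP-competitive inhibitor of the MET kinase, for 24 h, and each of the 4 groups had 2 replicate libraries.

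Some limits of these groups apply to everything that follows. Each genotype was 1 line, so differences between the lines and loss of p53 cannot be told apart from each other. In the count table the columns of the NF1-MET samples start with the letters SEV, and the study's methods describe a control of the same lentiviral vector with no guide, also put into NF1-MET cells. The labels name these libraries NF1-MET, and the sources used here do not say whether they came from that control. The species of the MET transgene and how its reads were counted are not given in the sources used here, so a part of the *Met* counts may come from it. DNA copy number was not measured in these libraries. Nothing states that the 2 replicates of a group came from separate cultures beyond separate wells, so the p-values measure the spread between these libraries, which may be technical.

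MET is the receptor tyrosine kinase for hepatocyte growth factor (HGF). On binding HGF it pairs, phosphorylates itself and recruits adaptors such as GRB2 and GAB1, which pass the signal to the RAS, PI3K and STAT3 pathways, and it is then internalized and degraded after ubiquitination by CBL. The gene sits in a stretch of the genome whose gene order is shared by mouse and human, between the caveolin genes and *Capza2*, and neighbouring genes are often carried along when *MET* is amplified in tumors. Caveolin-1 and caveolin-2 (*Cav1*, *Cav2*) are membrane proteins of caveolae, small pits of the plasma membrane in which caveolin-1 is the main building block and caveolin-2 its partner. *Tes* encodes testin, a LIM-domain protein of focal adhesions, *Capza2* a subunit of the protein that caps actin filament ends, and *Mdfic* a protein with the domain of the MyoD family inhibitor. *Cttnbp2* encodes a neuronal cortactin-binding protein, and *St7* was first described as a candidate tumor suppressor.

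In mm10 (GENCODE release M21), *Met* (ENSMUSG00000009376) spans chr6:17463800-17573980 on the plus strand, with 22 separate exon blocks. Upstream of it lie *Cav1* (chr6:17306335-17341452), *Cav2* (chr6:17281185-17289115) and *Tes* (chr6:17065149-17105828), whose start sites are 157.5, 182.6 and 398.7 kb away. *Mdfic* (chr6:15720661-15802169) is much farther upstream, at 1743.1 kb. Downstream lie *Capza2* (chr6:17636234-17666972) at 172.4 kb, *St7* (chr6:17692933-17943025) at 229.1 kb and *Cttnbp2* (chr6:18366478-18514843) at 1051.0 kb. *Cttnbp2* is on the minus strand, and the other 7 genes are on the plus strand. Exons of *Met*, *Capza2*, *Cav1*, *Cav2* and *Mdfic* overlap those of no other annotated gene. An antisense gene covers 2.11% of the exonic bases of *Tes* (*Gm4876*, 16 to 30 counts a library) and another covers 6.29% of those of *St7* (*Gm26738*, 0 to 1 count). The strand setting of the counting is not given in the sources used here, so reads of such pairs could not be told apart.

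The promoter windows of *Met*, *Cav2*, *Tes* and *Cav1* are printed because *Met*, *Cav2* and *Tes* fell under capmatinib in both lines while *Cav1*, encoded among them, rose. Each runs from 250 bases before to 50 bases after an annotated start in RefSeq (GRCm38.p6, plus strand). Capitals mark a match to the AP-1 motif TGANTCA, searched on both strands.
*Met*, chr6:17463707-17464006: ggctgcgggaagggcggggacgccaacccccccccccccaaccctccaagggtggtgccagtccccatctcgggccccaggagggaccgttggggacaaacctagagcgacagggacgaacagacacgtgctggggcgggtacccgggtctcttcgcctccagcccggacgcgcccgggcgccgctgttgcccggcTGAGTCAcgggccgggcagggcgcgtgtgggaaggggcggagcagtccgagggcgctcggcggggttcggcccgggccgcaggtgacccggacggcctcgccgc
*Cav2*, chr6:17280935-17281234: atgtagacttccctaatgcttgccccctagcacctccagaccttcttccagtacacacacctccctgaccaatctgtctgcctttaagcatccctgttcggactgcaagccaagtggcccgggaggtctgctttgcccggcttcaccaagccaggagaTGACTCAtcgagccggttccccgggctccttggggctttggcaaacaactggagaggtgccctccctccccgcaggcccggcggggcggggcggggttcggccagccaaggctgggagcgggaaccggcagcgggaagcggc
*Tes*, chr6:17064899-17065198: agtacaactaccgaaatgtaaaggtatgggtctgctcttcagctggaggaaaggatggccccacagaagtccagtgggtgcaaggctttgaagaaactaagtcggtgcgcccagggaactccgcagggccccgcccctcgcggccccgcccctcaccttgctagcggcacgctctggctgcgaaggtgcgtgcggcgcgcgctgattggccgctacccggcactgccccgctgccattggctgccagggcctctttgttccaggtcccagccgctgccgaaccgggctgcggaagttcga
*Cav1*, chr6:17306085-17306384: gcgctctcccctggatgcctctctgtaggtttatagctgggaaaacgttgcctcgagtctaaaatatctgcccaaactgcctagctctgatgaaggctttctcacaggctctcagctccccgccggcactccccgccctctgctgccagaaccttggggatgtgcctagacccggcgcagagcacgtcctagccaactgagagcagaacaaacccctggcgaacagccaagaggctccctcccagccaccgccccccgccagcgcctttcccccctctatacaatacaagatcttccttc

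All 8 genes had a promoter window in RefSeq, with 11 windows in total because *Cav1* and *St7* have alternative starts. TGANTCA was found in the *Met* window, 54 bases before the start, and in the *Cav2* window, 92 bases before it, and in no other window of the 8 genes. The *Tes* window is thus without it, and a part of this motif in any change of these genes was not tested. Of all 32851 mouse windows of this length, 7.81% hold it. The SP motif GGGCGG, on either strand, was in 7 of the 11 windows, from 7 of the 8 genes, and in 35.7% of all windows. One of its matches in the *Cav2* window overlaps the next by 1 base. Windows of *St7* held the only matches to the TEAD motif GGAATG (14.7% of all windows) and to the CRE motif TGACGTCA (1.79%), both in the same window, and none of the 8 genes had the ETS motif CCGGAA (14.9%). The 11 windows had a median GC content of 62.3%, against 52.7% over all windows. These letters describe the windows and say nothing of what binds there.

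The libraries held 30116810 to 42781371 counts each. A filter of 10 counts or more in 2 or more of the 8 libraries kept 14497 genes, and 7 of the 8 genes passed, *Cttnbp2* being the exception. Levels are counts per M counts, scaled with TMM factors (CPM), and comparisons between genes use RPKM, which also divides by exonic length in kb. The transcript *Gm42418*, which overlaps ribosomal RNA, took between 1.11% and 13.1% of a library's counts, and its share differed between replicates of a group. Leaving it out changed no call among the 7 genes. *Trp53* was at 182 and 193 CPM in NF1-MET vehicle against 97.5 and 100.1 CPM in NF1-MET;sgP53 vehicle. Of 10 Schwann cell and MPNST markers, *Sox10* (0 to 7 counts) and *S100b* (3 to 21 counts) were near 0, while *Nes*, *Vim*, *Ncam1* and *Sox9* were expressed. Summed markers of endothelial cells, leukocytes and epithelium did not exceed 1.93 CPM. Summed markers of fibroblasts were at 2831 to 2905 CPM in NF1-MET vehicle and 3720 to 3743 CPM in NF1-MET;sgP53 vehicle, and at 15520 to 15850 CPM over the 4 capmatinib libraries. Of these 5 fibroblast markers 4 passed the filter, *Col1a1* made up most of the sum (2411 to 15520 CPM), and *Lum* had 0 or 1 count. *Pdgfra* was at 324 to 449 CPM over the libraries, and *Dcn* and *Thy1* did not exceed 1.63 and 4.08 CPM. The shift in the sum moved with every capmatinib difference below, and its part in them was not tested.

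The *Met* transcript, which encodes the receptor itself, fell under capmatinib in both lines and differed little between the lines. It was at 351.6 and 362.2 CPM in NF1-MET vehicle and at 230.3 and 231.6 CPM in NF1-MET capmatinib. The NF1-MET;sgP53 libraries held 343.9 and 342.3 CPM with vehicle and 248.6 and 246.3 CPM with capmatinib. All 4 capmatinib libraries were below all 4 vehicle libraries. In bulk RNA, fewer cells that express a gene and less of its RNA per cell cannot be told apart. In NF1-MET it fell by 36.0% (log2 fold change -0.64, SE 0.0242, edgeR quasi-likelihood adjusted p = 2.47e-21). In NF1-MET;sgP53 it fell by 27.9% (log2 fold change -0.47, SE 0.0292, edgeR adjusted p = 2.54e-12). Among all genes tested, those with a value below that of *Met* made up 13.3% (NF1-MET) and 19.1% (NF1-MET;sgP53). The fall was smaller in NF1-MET;sgP53 by 0.16 on the log2 scale (95% interval 0.081 to 0.23, adjusted p = 0.00565, edgeR's test of the line by treatment interaction). That difference was no longer called without the second NF1-MET vehicle library (0.13, edgeR adjusted p = 0.0571, against a range of 0.000165 to 0.381 over all alternatives run), which held the highest *Met* level of the series.

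Between the lines, *Met* was slightly lower in NF1-MET;sgP53 in vehicle and slightly higher in capmatinib. The log2 difference was -0.076 in vehicle (SE 0.0255, edgeR quasi-likelihood adjusted p = 0.0361) and 0.10 in capmatinib (SE 0.0275, adjusted p = 0.0222). The libraries of the lines did not overlap in either treatment, but both calls were close to the threshold. In vehicle the adjusted p rose to 0.338 without the second NF1-MET library and to 0.0555 without the second NF1-MET;sgP53 library, with log2 differences of -0.054 and -0.075, and over all alternatives run it was 0.00582 to 0.899. In capmatinib it rose to 0.112 and 0.0858 without the first or the second NF1-MET library, with a log2 difference of 0.10 in each case, and over all alternatives run it was 0.00699 to 0.229.

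**Figure D1:**
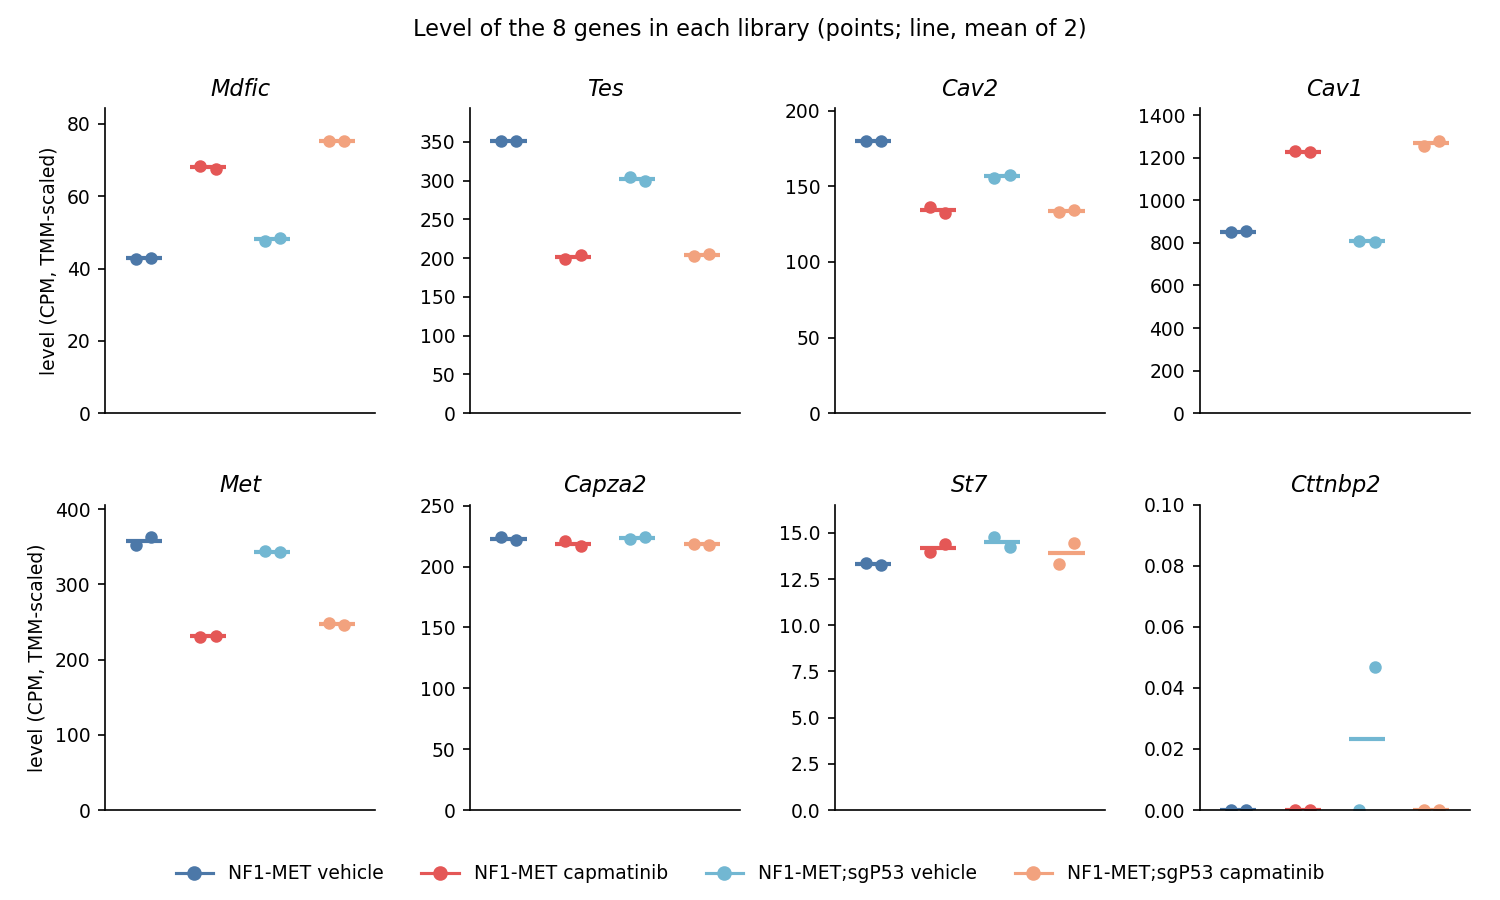
Level of each gene (y axis, CPM after TMM scaling, each panel with its own range from 0) in the 2 libraries of each group (points, with a line at their mean), panels in chromosome order. *Met*, *Tes* and *Cav2* sit lower and *Cav1* and *Mdfic* higher in the capmatinib libraries of both lines, *Capza2* and *St7* stay within a narrow range, and *Cttnbp2* has 2 counts in 1 library.

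*Tes*, upstream of the caveolin genes, had the largest fall of the 7 tested genes and the largest difference in response between the lines. In NF1-MET it was at 351.1 and 351.5 CPM with vehicle and at 198.5 and 204.5 CPM with capmatinib. The NF1-MET;sgP53 libraries held 305.1 and 300 CPM with vehicle and 203 and 205 CPM with capmatinib. The lines stood apart in vehicle and overlapped in capmatinib. Capmatinib gave a log2 fold change of -0.82 in NF1-MET (SE 0.0243, edgeR quasi-likelihood adjusted p = 4.19e-24) and -0.57 in NF1-MET;sgP53 (SE 0.0301, adjusted p = 1.56e-13), and the interaction was 0.23 (95% interval 0.16 to 0.31, adjusted p = 0.0001). In vehicle the line difference for *Tes*, NF1-MET;sgP53 minus NF1-MET, was -0.24 (SE 0.0249, edgeR adjusted p = 4.84e-07). In capmatinib the log2 difference between the lines was 0.018, with a 95% interval of -0.044 to 0.08. With library totals in place of TMM factors neither the vehicle difference (-0.18, edgeR adjusted p = 0.0674, in a range of 1.32e-21 to 0.0674 over all alternatives run) nor the interaction (0.31, adjusted p = 0.114, in a range of 1.04e-08 to 0.114) was called.

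The paired caveolin genes, whose starts are neighbours, moved in opposite directions. *Cav2* was at 179.7 and 180.1 CPM in NF1-MET vehicle and at 136.5 and 132.4 CPM in NF1-MET capmatinib, and in NF1-MET;sgP53 at 155.5 and 157.4 CPM in vehicle and 133.3 and 134.3 CPM in capmatinib. All capmatinib libraries lay below all vehicle libraries, and the lines overlapped only in capmatinib. Its log2 fold change was -0.44 in NF1-MET (SE 0.0282, edgeR quasi-likelihood adjusted p = 3.64e-15) and -0.23 in NF1-MET;sgP53 (SE 0.0324, adjusted p = 2.1e-06), and the responses differed by 0.20 (95% interval 0.11 to 0.28, adjusted p = 0.00275). As with *Tes*, the vehicle level was lower in NF1-MET;sgP53 (log2 difference -0.22, SE 0.0273, adjusted p = 3.84e-06, same test), and in capmatinib the difference was -0.0056, with a 95% interval of -0.073 to 0.062. Library totals ended both calls of *Cav2*, that in vehicle (-0.16, edgeR adjusted p = 0.0973, in a range of 1.46e-14 to 0.0973) and that of the interaction (0.27, adjusted p = 0.247, in a range of 3.32e-05 to 0.247).

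*Cav1* rose. It was at 850.7 and 855.8 CPM in NF1-MET vehicle and at 1231 and 1227 CPM in NF1-MET capmatinib. The NF1-MET;sgP53 libraries held 808.1 and 806.0 CPM with vehicle and 1255 and 1280 CPM with capmatinib, so that the 4 groups did not overlap. The log2 fold change was 0.51 in NF1-MET (SE 0.0189, edgeR quasi-likelihood adjusted p = 1.71e-21) and 0.65 in NF1-MET;sgP53 (SE 0.0227, adjusted p = 1.01e-16), and the rise was larger in NF1-MET;sgP53 by 0.12 (95% interval 0.065 to 0.18, adjusted p = 0.00517). In vehicle *Cav1* was lower in NF1-MET;sgP53 (log2 difference -0.10, SE 0.0208, adjusted p = 0.00129, same test), and in capmatinib the log2 difference of 0.045 was not called (95% interval 0.0046 to 0.085, adjusted p = 0.154). With library totals in place of TMM factors neither the vehicle difference (-0.043, edgeR adjusted p = 0.767, in a range of 2.25e-05 to 0.767 over all alternatives run) nor the interaction (0.20, adjusted p = 0.514, in a range of 4.79e-06 to 0.514) was called. Per length, *Cav1* was at 4.58 to 5.03 times the level of *Cav2* in the 4 vehicle libraries and at 8.74 to 9.23 times in the 4 capmatinib libraries. These RPKM ratios are descriptions of the libraries and do not depend on the scaling of library sizes.

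*Mdfic* also rose, by the same amount in both lines within its error. It was at 42.8 and 43 CPM in NF1-MET vehicle and 68.4 and 67.6 CPM in NF1-MET capmatinib, and in NF1-MET;sgP53 at 47.6 and 48.6 CPM in vehicle and 75.3 and 75.4 CPM in capmatinib. The 4 groups did not overlap, and NF1-MET;sgP53 was the higher line in each treatment. Capmatinib gave a log2 fold change of 0.65 in NF1-MET (SE 0.0389, edgeR quasi-likelihood adjusted p = 6.63e-16) and 0.65 in NF1-MET;sgP53 (SE 0.0352, adjusted p = 2.66e-13), and the difference of the responses was -0.018, with a 95% interval of -0.12 to 0.084. The log2 difference between the lines was 0.15 in vehicle (SE 0.0406, edgeR adjusted p = 0.0119) and 0.15 in capmatinib (SE 0.0326, adjusted p = 0.00479). The call in vehicle was lost without either NF1-MET library (adjusted p = 0.0533 and 0.0514) and without the second NF1-MET;sgP53 library (adjusted p = 0.079), at log2 differences of 0.13 to 0.15, and over all alternatives run the adjusted p was 0.00113 to 0.128. The call in capmatinib was lost with DESeq2's Wald test (0.15, adjusted p = 0.0893) and with library totals (0.26, edgeR adjusted p = 0.099), in a range of 0.00276 to 0.099.

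*Capza2*, the nearest gene downstream of *Met*, had the narrowest range of the 7 tested genes relative to its level, the highest library being 1.03 times the lowest, against 1.11 times for *St7* and 1.36 to 1.77 times for the others. Its 8 libraries lay between 216.5 and 223.9 CPM, with NF1-MET at 223.9 and 221.6 CPM (vehicle) and 221.4 and 216.5 CPM (capmatinib), and NF1-MET;sgP53 at 222.6 and 223.9 CPM (vehicle) and 218.3 and 218 CPM (capmatinib). The capmatinib libraries lay just below the vehicle libraries in each line, and the lines overlapped. Capmatinib gave a log2 fold change of -0.042 in NF1-MET (95% interval -0.093 to 0.0091, edgeR quasi-likelihood adjusted p = 0.136) and -0.033 in NF1-MET;sgP53 (95% interval -0.10 to 0.029, adjusted p = 0.342). With library totals in place of TMM factors, which moved the median of all genes to -0.18, the value in NF1-MET was -0.23 and was called (edgeR adjusted p = 0.000121, in a range of 0.000121 to 0.5 over all alternatives run). The ratio of *Met* to *Capza2* per length, which no scaling of library sizes changes, was 1.17 to 1.25 in the 4 vehicle libraries and 0.798 to 0.873 in the 4 capmatinib libraries. Per length *Met* thus moved from above to below its neighbour in both lines. By counts alone the ratio was 1.529 to 1.635 in the vehicle libraries and 1.04 to 1.139 in the capmatinib libraries. The move from above to below therefore rests on the exonic lengths used.

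*St7* was present at a low level and passed no test. It had 386 to 609 counts a library, with NF1-MET at 13.39 and 13.26 CPM (vehicle) and 13.95 and 14.4 CPM (capmatinib), and NF1-MET;sgP53 at 14.75 and 14.25 CPM (vehicle) and 13.31 and 14.47 CPM (capmatinib). Capmatinib gave a log2 fold change of 0.075 in NF1-MET (95% interval -0.076 to 0.23) and -0.061 in NF1-MET;sgP53 (95% interval -0.22 to 0.10). A change of the size of that of *Met* lies outside both intervals. *Cttnbp2* had 0 counts in 7 libraries and 2 counts in the second NF1-MET;sgP53 vehicle library. A count of 0 allows up to 3 counts, or 0.0752 to 0.108 CPM over the 7 libraries at 0, counting error only, and *Cttnbp2* was not tested.

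Of the 7 genes tested, capmatinib called 5 in NF1-MET (*Cav1* and *Mdfic* higher, *Met*, *Tes* and *Cav2* lower), where 70.2% of all genes tested were called, and the same 5 in the same directions in NF1-MET;sgP53, where 67.6% were called. Most of the transcriptome moved in these comparisons, so 5 of 7 is near the background. The median log2 fold change of the 7 genes was -0.042 in NF1-MET, against 0.002 over all genes, and -0.061 in NF1-MET;sgP53, against 0.0049. Between the lines, 5 of 7 were called in vehicle (*Mdfic* higher, *Met*, *Tes*, *Cav1* and *Cav2* lower in NF1-MET;sgP53; background 23.2%) and 2 of 7 in capmatinib (*Met* and *Mdfic*, both higher; background 12.3%, and 5.94% in that direction). The response to capmatinib differed between the lines for 4 of 7, *Met*, *Tes*, *Cav1* and *Cav2*, each with a more positive value in NF1-MET;sgP53 (background 9.71%, and 3.85% in that direction). In these 3 comparisons the counts rest on small differences and on 2 libraries a group, and DESeq2's Wald test called 3 of the 7 between the lines in vehicle, 0 in capmatinib and 4 for the interaction, where it called 14.5%, 6.65% and 8.04% of all genes to which it gave an adjusted p. With library totals in place of TMM factors edgeR called 1, 0 and 0 of the 7, against 14%, 4.6% and 2.17% of all genes. At an unadjusted p under 0.05 the counts of 0 were 2 in capmatinib (DESeq2), 2 in capmatinib and 3 for the interaction (edgeR with library totals). Library groups of the 7 genes failed to overlap for 7 genes with capmatinib in NF1-MET (background 83.5%), 6 in NF1-MET;sgP53 (82.5%), 6 between the lines in vehicle (60.5%) and 3 in capmatinib (52.3%).

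**Figure D2:**
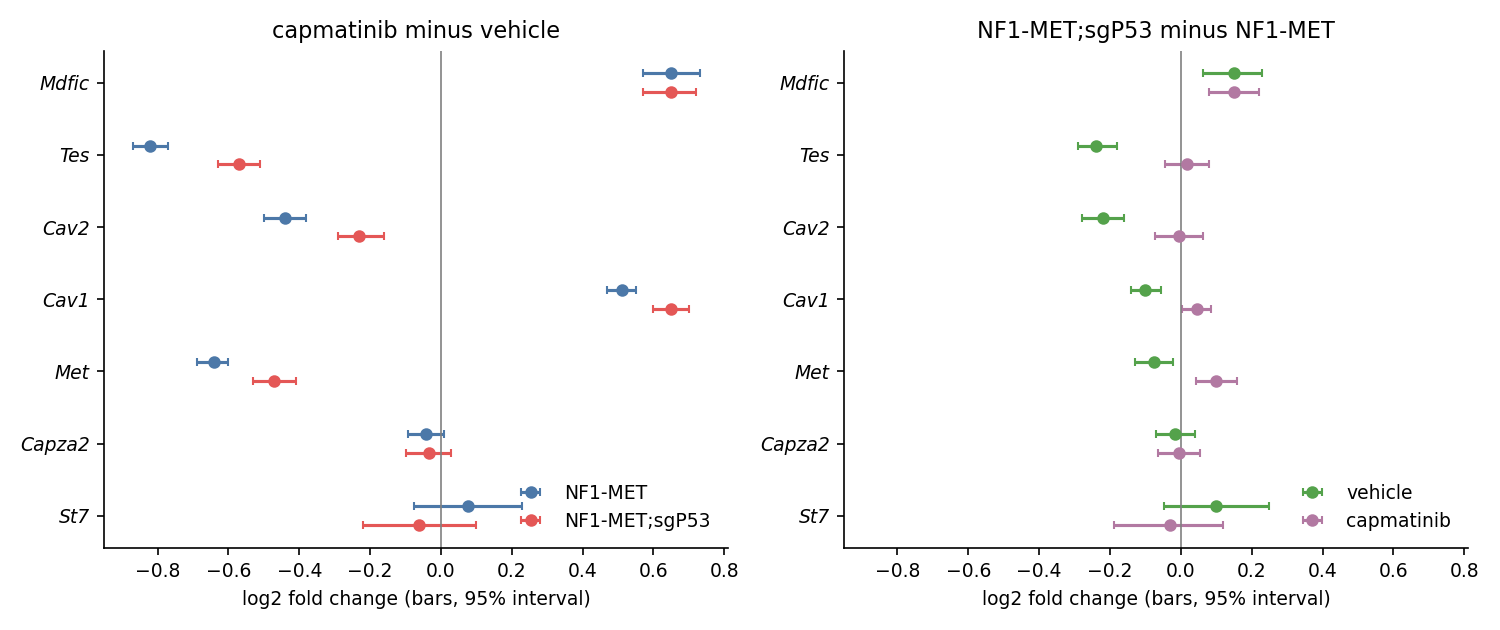
Log2 fold change (x axis) of the 7 tested genes in chromosome order (y axis), with 95% intervals as bars, for capmatinib against vehicle in each line (left) and for NF1-MET;sgP53 against NF1-MET in each treatment (right). With capmatinib *Tes* reached -0.82 and *Mdfic* 0.65 in NF1-MET, and between the lines the values of *Tes* and *Cav2* are -0.24 and -0.22 in vehicle and within their intervals of 0 in capmatinib.

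The order of the levels per length was led by *Cav1* in every library. In NF1-MET vehicle the means were 247.7 ± 1.06 RPKM for *Cav1* (SD, n = 2), 53.9 ± 0.0748 for *Cav2*, 51.4 ± 0.0470 for *Tes*, 46.5 ± 0.980 for *Met*, 37.8 ± 0.274 for *Capza2*, 5.77 for *Mdfic* and 1.47 for *St7*. Neighbours in this order were separated by more than their SD. In NF1-MET;sgP53 vehicle *Met* (44.7 ± 0.147 RPKM) and *Tes* (44.3 ± 0.519 RPKM) differed by less than the SD of *Tes*. Under capmatinib *Capza2* (37.2 and 37.0 RPKM in the 2 lines) was above *Met* (30.1 and 32.2 RPKM) and *Tes* (29.5 and 29.8 RPKM) in all 4 libraries, and in NF1-MET *Met* and *Tes* again differed by less than the SD of *Tes* (0.618 RPKM). Among the 12320 protein-coding genes kept, *Cav1* ranked 96th in NF1-MET vehicle and 57th in NF1-MET capmatinib, and *Met* ranked 851st and 1383rd, the 93.1st and 88.8th percentiles. Length was the union of a gene's exons, which overstates that of a gene expressed as a short isoform, so the order of near levels is uncertain.

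The neighbourhood was then widened to all protein-coding genes within 5 Mb of *Met*. There were 29, of which 18 passed the filter and 5 had no counts in any library. The 18 had a median level of 10.8 RPKM in NF1-MET vehicle and include the 7 tested genes of the group. The 11 others had a median of 4.66 RPKM, near the 4.42 RPKM of the 572 kept protein-coding genes of chromosome 6 and the 5.31 RPKM of all kept. The 5 genes at the highest levels per length in NF1-MET vehicle all start within 0.4 Mb of *Met*, namely *Cav1*, *Cav2*, *Tes*, *Met* and *Capza2*, but the levels beyond them were not uniformly high. *St7*, whose start is 0.23 Mb downstream, was at 1.47 RPKM, and *Wnt2*, *Asz1*, *Cftr* and *Cttnbp2* beyond it had at most 4 counts in any library. Upstream of *Tes*, *Tfec* had 0 counts in all 8 libraries. High and silent genes thus stood side by side, and these levels are RNA and give no copy number.

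Of the 11 genes of this window outside the group, capmatinib called 5 higher and 5 lower in NF1-MET and 5 higher and 3 lower in NF1-MET;sgP53, where 70.2% and 67.6% of all genes were called. Past 2-fold were *Cped1*, which rose from 2.36 and 3.64 CPM to 7.52 and 8.04 CPM in NF1-MET (log2 fold change 1.38, SE 0.14) and by a log2 fold change of 1.44 in NF1-MET;sgP53 (SE 0.118), and *Tspan12*, which fell in NF1-MET from 60 and 54 to 14 and 25 counts (log2 fold change -1.36, SE 0.294) and was at -0.48 in NF1-MET;sgP53 without a call (SE 0.392), a value that moved to -0.69 and -0.19 without the first or the second NF1-MET;sgP53 vehicle library. *Tspan12* was already at 17 and 30 counts in NF1-MET;sgP53 vehicle (line difference -1.32, edgeR adjusted p = 0.00202), and its response was not shown to differ between the lines (interaction 0.86, adjusted p = 0.323). Between the lines 2 were called higher and 2 lower in vehicle (background 23.2%) and 1 higher in capmatinib (background 12.3%). The response differed between the lines for 1 of the 11 (background 9.71%), *Fam3c*, named after its values were seen, with an interaction of -0.26 (SE 0.0451). Its sign is opposite to that of the 4 called genes near *Met*.

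**Figure D3:**
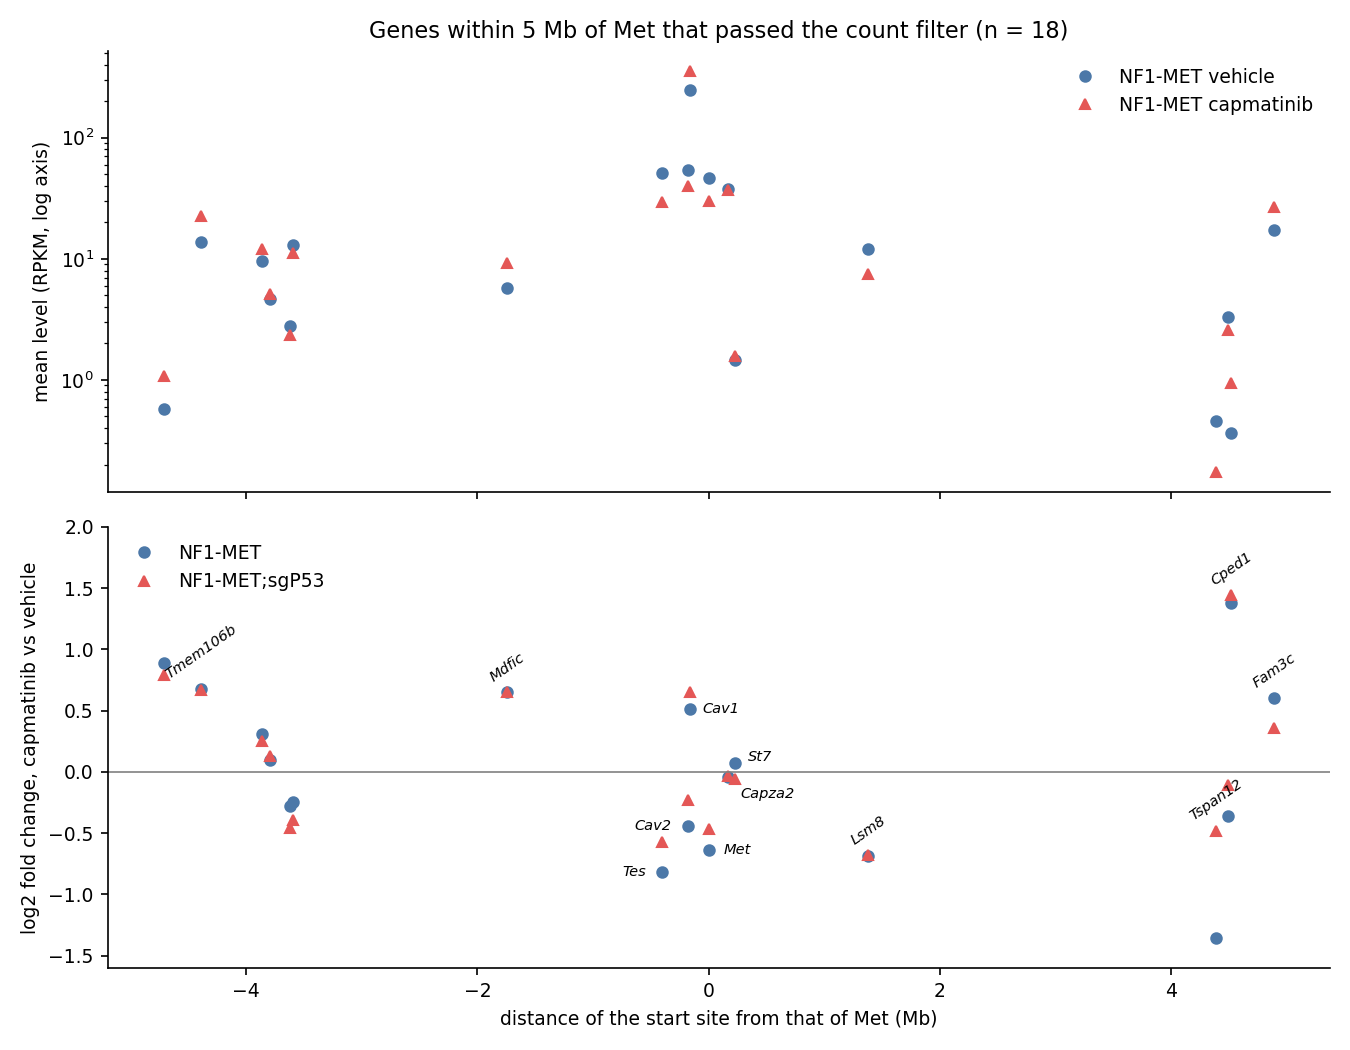
Mean level in NF1-MET (top, RPKM on a log axis) and log2 fold change with capmatinib in each line (bottom) of the 18 kept protein-coding genes by the distance of their start from that of *Met* (x axis, Mb). The high levels of *Cav1*, *Cav2*, *Tes*, *Met* and *Capza2* sit around 0, and genes that rose and genes that fell lie on both sides of *Met*.

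Some genes elsewhere in the genome followed *Met* more closely than its neighbours did. Over the 8 libraries and the 8658 genes compared, those with at least 10 CPM on average, genes with small Euclidean distances to *Met* in centred log2 CPM were *Sfpq* (0.0543, the smallest), *Srrt* (0.0842), *Med30* (0.0849) and *Purb* (0.0855), with log2 fold changes of -0.62, -0.69, -0.59 and -0.59 with capmatinib in NF1-MET. SFPQ is a nuclear RNA-binding protein. Of the neighbours, *Tes* came 754th and *Cav2* 1514th, *Capza2* 4057th, *St7* 4510th, *Cav1* 7374th and *Mdfic* 7560th. These distances share the libraries and their scaling and are given as a description.

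Partner genes were counted in 5 lists. Of 28 tested genes for the MET ligand, its activation and its signalling, 10 were called higher and 12 lower with capmatinib in NF1-MET (median log2 fold change -0.043) and 11 higher and 8 lower in NF1-MET;sgP53 (median -0.014). These calls, 22 and 19 of 28, are near the 70.2% and 67.6% of all genes called. *Hgf*, the ligand, was at 54.7 and 51.1 CPM in NF1-MET vehicle and 26.4 and 26.6 CPM in NF1-MET capmatinib, and in NF1-MET;sgP53 at 32.9 and 33.5 CPM in vehicle and 26.7 and 25.3 CPM in capmatinib. NF1-MET vehicle stood above the other 3 groups, and the lines overlapped in capmatinib. *Hgf* fell by a log2 fold change of -1.01 in NF1-MET (SE 0.0486) and -0.35 in NF1-MET;sgP53 (SE 0.0526), it was lower in NF1-MET;sgP53 by -0.69 in vehicle (SE 0.0452), and the interaction was 0.64 (95% interval 0.50 to 0.79), each called by edgeR's test. This is the arrangement of values also seen for *Tes* and *Cav2*: a lower vehicle level in NF1-MET;sgP53 and overlapping lines in capmatinib. Downstream of the receptor, *Gab1*, the docking adaptor of MET, rose by 1.14 in NF1-MET (SE 0.0522) and 1.19 in NF1-MET;sgP53 (SE 0.0491), with 19.7 to 21 CPM in the vehicle libraries and 44.5 to 47.2 CPM in the capmatinib libraries. *Stat3*, a transcription factor activated by MET, rose by 1.24 (SE 0.03) and 1.08 (SE 0.0331), and its rise was smaller in NF1-MET;sgP53 by an interaction of -0.18 (SE 0.0437). That interaction was no longer called without the first NF1-MET vehicle, the second NF1-MET capmatinib or the second NF1-MET;sgP53 capmatinib library (edgeR adjusted p = 0.0531, 0.0592 and 0.0778, in a range of 0.00556 to 0.852 over all alternatives run).

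The partners of the caveolins were mixed. Of 7 tested, 3 were called higher and 3 lower with capmatinib in each line (background 70.2% and 67.6%). *Cavin2*, a coat protein of caveolae, rose from 118.3 and 122.6 CPM to 462.7 and 455.2 CPM in NF1-MET (log2 fold change 1.91, SE 0.0256) and from 146.6 and 147.3 CPM to 456.6 and 444.8 CPM in NF1-MET;sgP53 (log2 fold change 1.62, SE 0.0305), with an interaction of -0.31 (SE 0.0382). Among the relatives and partners of testin, 8 of 12 rose and 1 fell in NF1-MET, with a median log2 fold change of 0.62 against 0.002 over all genes, and 10 of 12 rose and 1 fell in NF1-MET;sgP53 (median 0.55 against 0.0049). Over all genes, 35.5% and 34.2% were called higher in these lines, and the 9 and 11 of 12 called in either direction stand beside 70.2% and 67.6%. Those past 2-fold were *Lpp*, a zyxin relative at focal adhesions (1.90, SE 0.0218, and 1.5, SE 0.0357, with an interaction of -0.42), *Enah*, an actin filament elongation factor (1.59, SE 0.0394, and 1.62, SE 0.0413), and *Prickle1*, a LIM protein of planar cell polarity (1.71, SE 0.197, and 1.51, SE 0.153, at 36 to 181 counts).

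The capping protein and its regulators, with 10 tested, had 3 called higher and 3 lower in NF1-MET and 3 higher and 2 lower in NF1-MET;sgP53, with none of those called past 2-fold. Cortactin and the STRIPAK complex, partners of *Cttnbp2*, had 5 of 17 higher and 8 lower in NF1-MET and 5 higher and 6 lower in NF1-MET;sgP53. For both lists the background was again 70.2% and 67.6%. Between the lines in vehicle the calls were 3 higher and 10 lower of 28 for the MET list, 2 and 3 of 7 for the caveolin partners, 3 and 1 of 10 for the capping list, 6 and 2 of 12 for the testin list, and 0 and 3 of 17 for cortactin and STRIPAK, against 23.2% of all genes called. In capmatinib they were 2 and 2, 1 and 1, 2 and 0, 0 and 2, and 0 and 0 in the same order, against 12.3% of all genes. The response to capmatinib differed between the lines, as more positive and more negative in NF1-MET;sgP53, for 4 and 3, 2 and 2, 0 and 1, 0 and 4, and 2 and 0, again in that order, against 9.71% of all genes.

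Leaving out 1 library moved 9 of the 15 list counts that compare the lines by over 1.5 times, and none of those of the MET list. Each such fit, and DESeq2's Wald test, also called fewer of all genes than the main fit did. A fall in the count of a list is therefore not particular to that list. In vehicle the 4 calls of the capping list fell to 2 without either NF1-MET library, to 0 without the second NF1-MET;sgP53 library and to 1 with DESeq2's Wald test. The 8 calls of the testin list fell to 5 without the second NF1-MET library and to 4 with DESeq2, and the 5 of the caveolin partners to 3 without the first NF1-MET library. In capmatinib the 2 calls of the capping list fell to 0 without the first NF1-MET library and to 1 without any other, the 2 of the caveolin partners fell to 1 without the second NF1-MET;sgP53 library, and the 2 of the testin list became 4 without the first. For the interaction, the 4 calls of the caveolin partners fell to 2 without the first NF1-MET vehicle or the second NF1-MET;sgP53 vehicle library. The 1 call of the capping list was lost without the second library of NF1-MET vehicle, NF1-MET capmatinib or NF1-MET;sgP53 vehicle. The 2 calls of cortactin and STRIPAK fell to 1 without the first library of NF1-MET vehicle, NF1-MET capmatinib or NF1-MET;sgP53 vehicle, and became 4 without the second NF1-MET;sgP53 capmatinib library.

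**Figure D4:**
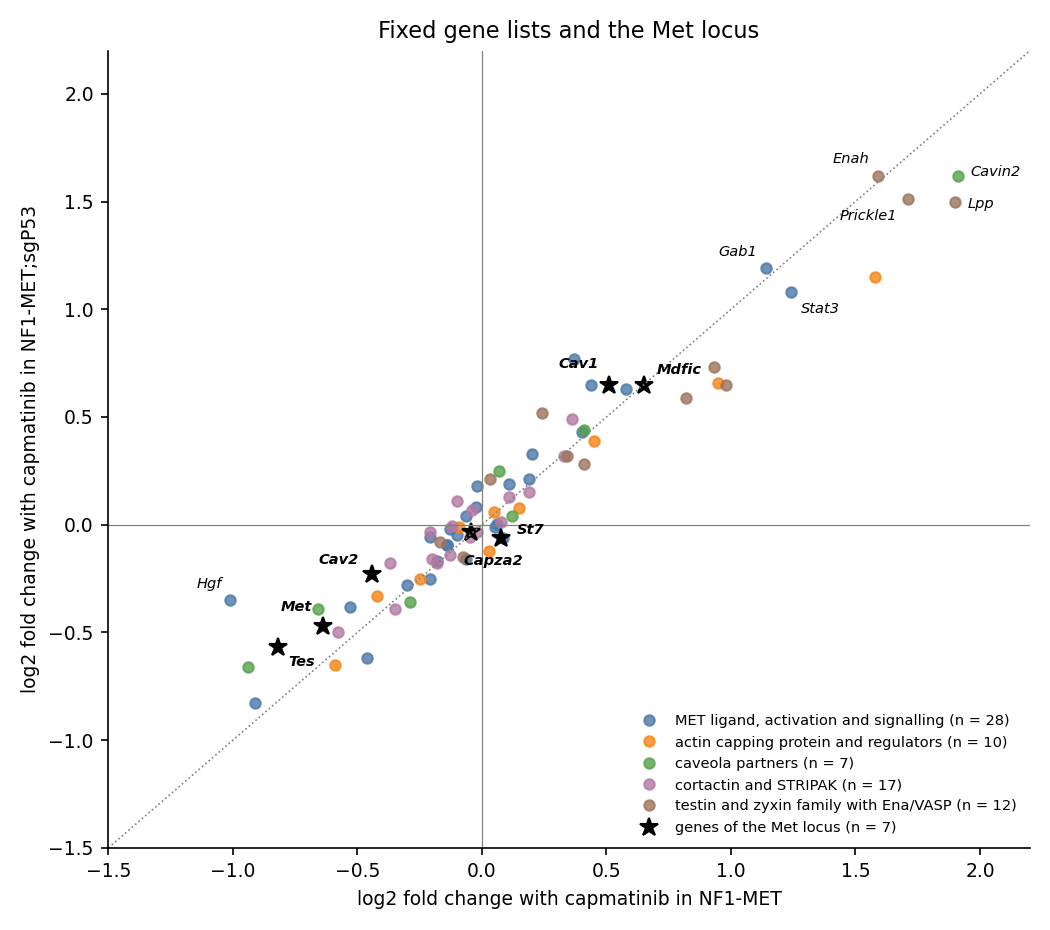
Log2 fold change with capmatinib in NF1-MET (x axis) and in NF1-MET;sgP53 (y axis) of the tested genes of the 5 lists (coloured points) and of the 7 tested genes of the *Met* locus (stars), with a dotted line where both are equal. *Met*, *Tes*, *Cav2* and *Hgf* lie above the line on the falling side, and *Cavin2* and *Lpp* below it on the rising side.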

How the data were processed

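RNA-seq of 8 libraries (4 groups of 2) was used. Per the labels and the study's methods, the authors made poly(A) libraries, sequenced 50 bp paired reads, trimmed them with Trim Galore 0.4.2, mapped them to mm10 with STAR 2.5.2b and deposited raw counts per gene, which are whole numbers and not normalized. The annotation release is not given in the sources used here. Of the identifiers, 99.56% were found in GENCODE release M21, which gave positions and exon lengths. Totals of 30116810 to 42781371 counts set the depth.

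Counts were analysed in R 4.3.3 with edgeR 4.0.16 (limma 3.58.1). The filter asked for 10 counts or more in 2 or more libraries. TMM factors were computed within each comparison, and all kept genes detected in 2 or more of its libraries were tested with the quasi-likelihood F-test. P-values were adjusted by Benjamini-Hochberg over all genes tested and called under 0.05. A standard error is the size of the log2 fold change over the square root of F. The 5 comparisons were capmatinib in each line, the lines in each treatment, and their interaction. Alternatives were DESeq2 1.42.0 (size factors, Wald test), library totals, edgeR's bias-adjusted test, no filter, a replicate block, a stricter filter, one model over all 8 libraries, omission of *Gm42418*, and each library left out in turn. The labels give no batch. The procedure was tested on simulated data in which all genes shared the same dispersion, and no result here rests on that test. Genes outside the 8 were named if called past 2-fold (lists; window within 5 Mb), or as the 5 nearest to *Met*, and *Hgf* always. Some results under these rules are not reported here. *Fam3c*, *Wnt2*, *Asz1*, *Cftr* and *Tfec* were named after their values were seen. The 8 genes, lists, motifs and rules were chosen with earlier results of these data known. Replicate numbers did not pair the libraries, since deviations of same-numbered libraries correlated at -0.0536 to 0.102 over the pairs of groups. Other assays of the study were not analysed here.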

Additional observations from a re-analysis of the deposited data

Results flagged for a closer look

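Each result below was picked out because the response to capmatinib differed between the lines by edgeR's quasi-likelihood test of the interaction, given as the log2 response in NF1-MET;sgP53 minus that in NF1-MET. For the genes near *Met* the differences were 0.16 for *Met*, 0.12 for *Cav1*, 0.20 for *Cav2* and 0.23 for *Tes*. For the genes named elsewhere they were 0.64 for *Hgf*, -0.31 for *Cavin2*, -0.18 for *Stat3*, -0.42 for *Lpp* and -0.26 for *Fam3c*. All are 1 line against 1 line, and with library totals in place of TMM factors only that of *Hgf* was still called. The difference for *Stat3* was also lost without any 1 of 3 libraries (edgeR adjusted p = 0.0531 to 0.0778) and that for *Met* without the second NF1-MET vehicle library (0.0571).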

How the results depend on the processing

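For the 7 tested genes near *Met*, 476 recomputed values covered 35 log2 differences, and 430 kept their direction and their side of the threshold. The calls of *Met*, *Tes*, *Cav2*, *Cav1* and *Mdfic* with capmatinib in both lines (10 of 21 calls) kept both under every alternative run, with *Met* at -0.83 to -0.62 (NF1-MET) and -0.59 to -0.46 (NF1-MET;sgP53). The remaining calls, all between lines or of the interaction, were lost under at least 1 alternative. Where a value below moved, the cause was not tested.

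With library totals in place of TMM factors, calls among the 7 genes fell to 1 between the lines in vehicle, 0 in capmatinib and 0 for the interaction, with *Met* at -0.02, 0.22 and 0.24 and mean *Met* levels of 373, 210, 368 and 243 CPM in NF1-MET vehicle, NF1-MET capmatinib, NF1-MET;sgP53 vehicle and NF1-MET;sgP53 capmatinib. That scaling moved the median log2 difference of all genes to -0.18 and -0.12 with capmatinib in NF1-MET and NF1-MET;sgP53, 0.06 and 0.11 between the lines in vehicle and capmatinib, and 0.052 for the interaction. DESeq2's Wald test gave 3 and 0 calls between the lines in vehicle and capmatinib, with *Met* at -0.077 (adjusted p = 0.0722) and 0.10 (adjusted p = 0.0552, DESeq2), and all 8 libraries in one model gave *Met* at -0.057 in vehicle. With 1 library left out at a time, the lone library was taken to vary like the others. The *Met* difference between the lines then ranged from -0.10 to -0.054 in vehicle and 0.093 to 0.11 in capmatinib, and its interaction from 0.13 to 0.20.

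Reversed signs all belonged to uncalled values. With library totals they were -0.11 for *St7* (capmatinib in NF1-MET), 0.041 for *Capza2* (vehicle), 0.11 for *Capza2*, 0.11 for *Cav2*, 0.088 for *St7* and 0.088 for *Hgf* (lines in capmatinib), and 0.07 for *Capza2* and 0.06 for *Mdfic* (interaction). The model of all 8 gave 0.0033 for *Capza2* in vehicle. For the interaction *Capza2* was at 0.0052 with DESeq2's size factors, 0.0056 by DESeq2, 0.017 without the filter and 0.027 without *Gm42418*, and *Mdfic* at 0.0072 and 0.017 in the last 2. With 1 library left out at a time, the difference between the lines in capmatinib spanned 0 for *Capza2* (-0.022 to 0.013), *Cav2* (-0.029 to 0.017, and 0.00077 without the first NF1-MET;sgP53 library), *Tes* (-0.0015 to 0.038), *St7* (-0.094 to 0.028) and *Hgf* (-0.066 to 0.011), and the interaction for *Capza2* (-0.025 to 0.027) and *Mdfic* (-0.031 to 0.015).

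The replicate number as a block, which does not pair these libraries, left *Met* at -0.64 and -0.47 with capmatinib, -0.076 and 0.10 between the lines and 0.16 for the interaction, and changed no call among the 7 genes. With it the cortactin and STRIPAK calls between the lines in vehicle went from 3 to 5.

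Counts over the 5 lists, recomputed after the data had been seen, stayed within 1.5 times in 295 of 340 cases, with 1 of the 45 exceptions in a capmatinib comparison. With library totals, calls between the lines fell to between 0 and 7 a list in vehicle and to 0 or 1 in the MET list and most others in capmatinib and for the interaction, and cortactin and STRIPAK with capmatinib in NF1-MET;sgP53 to 7. *Cttnbp2*, at 0 to 2 counts, was below the filter and had no test.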
